A study of Mus musculus with 12 samples.

Results

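Wild-type myoblast cultures of 2 litters were compared with each other, with no gene deleted in either. The group myoblast_LBR_wt came from the litter of the LBR_KO animals and the group myoblast_LMNA_wt from the litter of the LMNA_KO animals, both of strain C57Bl/6 and both wild-type offspring of heterozygous parents. Each is 1 library made with the NuGEN Ovation RNA-Seq kit. The labels give no sex, age, passage, culture medium or stage of differentiation. Every gene whose FPKM averaged 1 or more over these 2 columns and was above 0 in both was taken, which gave 11402 of the 22552 genes in the table (50.6%). The difference between the columns was not used to choose them. The study set such wild types beside knockouts of Lbr, which encodes a sterol reductase and chromatin tether of the inner nuclear envelope, or of Lmna, which encodes lamins A and C, in myoblasts and in striated muscle. Its 12 samples stand in 7 columns. The 2 knockout myoblast columns, myoblast_LBR_KO and myoblast_LMNA_KO, stand for 2 samples each and are used beside the wild types as the authors' single value for each group. Since the study processed a single wild type with each knockout litter, the distance between these 2 libraries is the only measure in the table of how far myoblast cultures of the same genotype lie apart.

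Myoblasts are the dividing precursors of skeletal muscle. They express the regulators Pax7, Myf5 and Myod1, and on withdrawal from the cell cycle they switch on Myog, fuse into myotubes and make the proteins of the sarcomere, the contractile unit of muscle. Cultures grown from muscle tissue also carry other cells of the tissue, such as fibroblasts, macrophages and pericytes, and their share can differ from culture to culture. In bulk RNA, fewer cells of a type and less RNA per cell cannot be told apart.

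The markers that define myoblasts were low in both libraries. Pax7, the transcription factor of muscle stem cells, stood at 0.253 FPKM in Lbr-litter and 0.152 FPKM in Lmna-litter wild type. Myf5, an early myogenic regulator, stood at 0.241 FPKM in Lbr-litter and 0.441 FPKM in Lmna-litter wild type. Both were below the level needed to be compared. Myod1, which commits cells to the muscle lineage, had 2.46 FPKM in Lbr-litter and 5.35 FPKM in Lmna-litter wild type, and Des, the muscle intermediate filament desmin, had 23.3 FPKM in Lbr-litter and 32.9 FPKM in Lmna-litter wild type. Genes of fibroblasts and smooth muscle were far more abundant. Col1a1, a fibrillar collagen chain, had 1109 FPKM in Lbr-litter and 1151 FPKM in Lmna-litter wild type. Acta2, the actin of smooth muscle and of activated fibroblasts, had 4783 FPKM in Lbr-litter and 7479 FPKM in Lmna-litter wild type. The libraries are called myoblasts here because the label does.

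With 1 library a group there is no replicate check, and no test or p-value is given. Differences are the Lbr-litter minus the Lmna-litter wild type on the log2(FPKM + 1) scale, so a positive value is higher in the Lbr litter. A gene is called higher or lower when it differs by at least 2-fold on that scale, a log2 difference of 1, which understates the difference of genes with low levels. The values are not counts and the depth is unknown. By an estimate from the smallest values, 1 FPKM stood, for a 2 kb transcript, for about 32.7 fragments in the Lbr-litter and 33.1 fragments in the Lmna-litter wild type, the second from a weak peak. Genes reaching 1 FPKM numbered 11315 in the Lbr-litter and 11398 in the Lmna-litter wild type, and the 10 most abundant genes held 9.21% and 10.3% of the summed FPKM of these libraries.

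Most genes lay close together in the 2 cultures. The median absolute difference was 0.26 (1.20-fold) and 95% of genes were within 0.83 (1.78-fold). The levels correlated across genes with a Pearson coefficient of 0.968 and a Spearman coefficient of 0.963 over 11402 genes, which share their 2 libraries and are not replicates. Of these genes, 77 were at least 2-fold higher in the Lbr-litter wild type (0.675%) and 232 at least 2-fold lower (2.03%). The median difference was -0.07 and the middle 50% of genes lay between -0.31 and 0.20. The share of higher genes among those called was 24.9%, but it depended on the scaling. It was 36.7% (110 higher, 190 lower) with the differences centred on their median and 35.6% (108 higher, 195 lower) after quantile normalization. It was 36.8% (84 higher, 144 lower) with centring within bins of transcript length, and 14.9% (32 higher, 183 lower) with centring within bins of GC content. The spread varied with level, with 95% of genes within 0.94 at 2 to 5 FPKM and within 0.77 at 20 to 100 FPKM. The share of genes past 2-fold was 2.89% at 1 to 2 FPKM, 4.12% at 2 to 5 FPKM, 2.46% at 5 to 20 FPKM, 1.93% at 20 to 100 FPKM and 2.71% above 100 FPKM. At the edge of the choice of genes, Dync2h1 (1.34 FPKM in Lbr-litter, 0.667 FPKM in Lmna-litter wild type) was just inside, and Mmp15 (0.957 FPKM in Lbr-litter, 1.04 FPKM in Lmna-litter wild type) just outside.

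**Figure D1:**
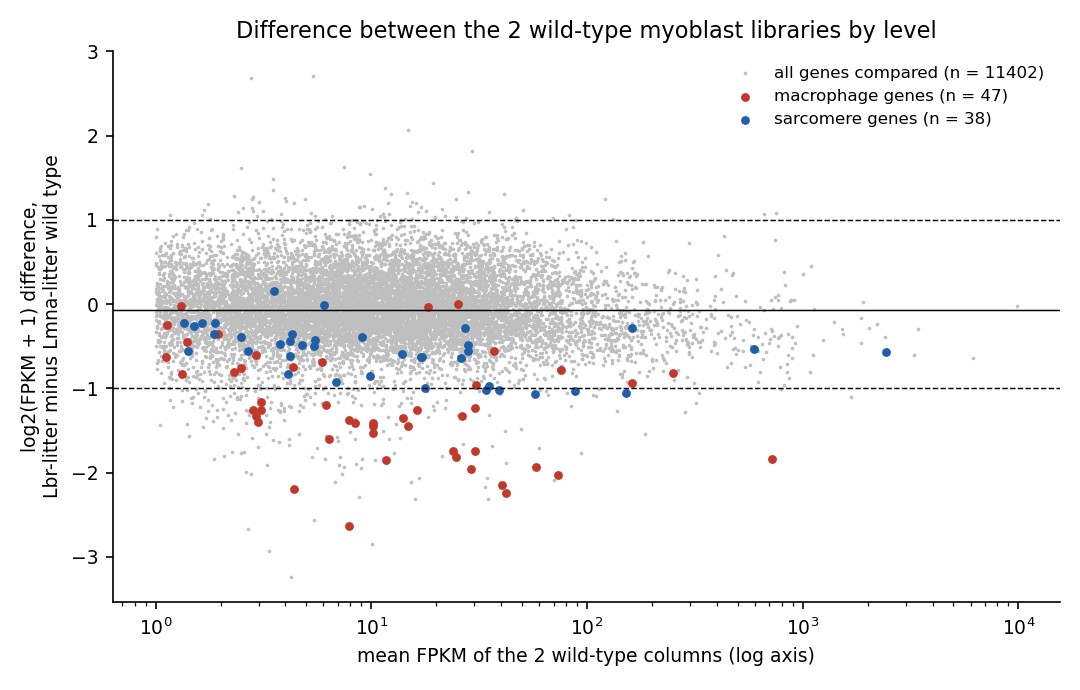
Each point is a gene compared between the wild-type libraries. The x axis is the mean FPKM on a log axis and the y axis the log2(FPKM + 1) difference, Lbr-litter minus Lmna-litter wild type. The dashed lines mark 2-fold and the solid line the median of -0.07. The 47 macrophage genes lie below 0 with 1 exception, 29 of them past 2-fold, and the 38 sarcomere genes form a narrower band of which 5 pass 2-fold.

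Of the 34 gene lists, that of macrophage surface genes had the largest median difference, with low values in the Lbr-litter wild type. Macrophages are phagocytes of the innate immune system that live in muscle and clear debris there. Of 31 genes of macrophage surface and signalling, 27 were compared. All 27 lay below 0, 18 were at least 2-fold lower, 0 were higher, and the median was -1.32, beside -0.07 for all genes. Tyrobp, the DAP12 adaptor of activating receptors, had 14.3 FPKM in Lbr-litter and 66.7 FPKM in Lmna-litter wild type (-2.15). Fcer1g, the common gamma chain of Fc receptors, had 28.4 FPKM in Lbr-litter and 119 FPKM in Lmna-litter wild type (-2.03). The gene for PU.1, the transcription factor that myeloid cells require, is listed as Sfpi1 and had 4.55 FPKM in Lbr-litter and 18.9 FPKM in Lmna-litter wild type (-1.85). The receptor of the macrophage growth factor CSF1 showed the same size of difference. Csf1r had 10.4 FPKM in Lbr-litter and 39.2 FPKM in Lmna-litter wild type (-1.82). Cd68, a lysosomal glycoprotein of macrophages, had 10.5 FPKM in Lbr-litter and 37.5 FPKM in Lmna-litter wild type (-1.75), and Laptm5, a lysosomal protein of blood cells, had 13.4 FPKM in Lbr-litter and 47.1 FPKM in Lmna-litter wild type (-1.74), both past 2-fold. Genes of this list with little difference were few. The inhibitory Fc receptor gene Fcgr2b, named after its value was seen, had 1.30 FPKM in Lbr-litter and 1.33 FPKM in Lmna-litter wild type (-0.02).

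The secreted and lysosomal products of macrophages went the same way. Of 20 complement and lysosome genes compared, 11 were at least 2-fold lower, 19 lay below 0 and the median was -1.24. The 3 chains of C1q, the recognition molecule of the classical complement pathway, were all lower. C1qa had 1.47 FPKM in Lbr-litter and 14.3 FPKM in Lmna-litter wild type (-2.64). C1qb had 23.3 FPKM in Lbr-litter and 92.2 FPKM in Lmna-litter wild type (-1.94). C1qc had 14.0 FPKM in Lbr-litter and 70.2 FPKM in Lmna-litter wild type (-2.24). Aif1, which encodes the actin-bundling protein IBA1 of macrophages and microglia, was nearly as far apart. It had 0.926 FPKM in Lbr-litter and 7.86 FPKM in Lmna-litter wild type (-2.20). The lysozyme genes Lyz1 and Lyz2 are near-identical copies whose fragments the counting could split, so their separate values are uncertain. Lyz2 had 316 FPKM in Lbr-litter and 1131 FPKM in Lmna-litter wild type (-1.83), and Lyz1 had 11.3 FPKM in Lbr-litter and 46.8 FPKM in Lmna-litter wild type (-1.96). Genes of this list with little difference were Ctsk, Gpnmb and Acp5, all named after their values were seen. Ctsk, the collagen-degrading cathepsin K of osteoclasts, had 25.4 FPKM in Lbr-litter and 25.3 FPKM in Lmna-litter wild type. Gpnmb, a glycoprotein of phagocytes and pigment cells, had 18.1 FPKM in Lbr-litter and 18.6 FPKM in Lmna-litter wild type. Acp5 had 0.950 FPKM in Lbr-litter and 1.31 FPKM in Lmna-litter wild type (-0.24).

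To show regulatory sequence of the macrophage and muscle genes, the 250 bases before the RefSeq gene start (GRCm38.p6, matched by symbol, since the table's build is mm9) were searched on both strands for 1 motif of each lineage. GAGGAA, the core bound by PU.1, was in 18 of the 35 macrophage genes with a promoter in the RefSeq table (51.4%, of 47 compared), in 9 of 31 sarcomere genes (29.0%, of 38 compared) and in 25.9% of all 27025 genes with a promoter. CAGCTG, an E-box bound by the MyoD family, was in 7 of the 35 macrophage genes (20%), in 13 of the 31 sarcomere genes (41.9%) and in 14.7% of all genes. The share of sarcomere genes with GAGGAA was thus near that of all genes. A match is a description of the letters and not a site. The promoters of C1qb (chr4:136886201-136886450, minus strand) and C1qc (chr4:136892915-136893164, minus strand) are shown 5′ to 3′ as examples of neighbouring macrophage genes that were low together. Capitals mark the GAGGAA motif, or TTCCTC where it lies on the other strand.
C1qb: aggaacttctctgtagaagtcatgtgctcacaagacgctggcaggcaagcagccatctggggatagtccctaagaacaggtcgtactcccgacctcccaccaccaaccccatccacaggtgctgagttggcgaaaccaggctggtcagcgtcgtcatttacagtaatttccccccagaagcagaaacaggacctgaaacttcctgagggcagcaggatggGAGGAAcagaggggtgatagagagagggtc
C1qc: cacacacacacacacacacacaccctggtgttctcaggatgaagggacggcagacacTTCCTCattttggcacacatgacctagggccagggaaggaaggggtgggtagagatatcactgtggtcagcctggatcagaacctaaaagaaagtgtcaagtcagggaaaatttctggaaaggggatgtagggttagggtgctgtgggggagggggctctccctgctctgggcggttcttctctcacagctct
In C1qb the motif starts 30 bases before the gene start, and in C1qc 193 bases before it.

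Chemokines followed macrophages only in part, and the few antigen presentation genes compared lay on the same side. Of 20 chemokine ligand genes compared, 11 were at least 2-fold lower, 3 lay above 0 and the median was -1.26. Ccl9, a chemokine that macrophages secrete, had 5.82 FPKM in Lbr-litter and 27.5 FPKM in Lmna-litter wild type (-2.06). Pf4, platelet factor 4, which macrophages also make, had 12.2 FPKM in Lbr-litter and 40.9 FPKM in Lmna-litter wild type (-1.66). The neutrophil and macrophage attractants Ccl3 (0.451 FPKM in Lbr-litter and 4.79 FPKM in Lmna-litter wild type), Cxcl2 (0.375 FPKM in Lbr-litter and 3.79 FPKM in Lmna-litter wild type) and Ccl4 (0.486 FPKM in Lbr-litter and 4.02 FPKM in Lmna-litter wild type) were below 1 FPKM in the Lbr-litter and above it in the Lmna-litter wild type. Ccl7, a monocyte attractant that fibroblasts also secrete, was the most abundant of those named, with 94.2 FPKM in Lbr-litter and 276 FPKM in Lmna-litter wild type (-1.54). Among the chemokines within 2-fold was Cxcl12, which stromal cells make, named after its value was seen. It had 60.1 FPKM in Lbr-litter and 59.7 FPKM in Lmna-litter wild type. The chemokines were also less uniform across the 4 columns, with the Lbr-litter wild type lowest for 11 of 20. Ccl7 stood at 95.6 FPKM in Lbr-knockout and 260 FPKM in Lmna-knockout myoblasts, so both columns of the Lbr litter were low. Of 7 genes of MHC class II presentation, 3 were compared. All 3 lay below 0, with a median of -0.90, and the Lbr-litter wild type was lowest of the 4 columns for each. Past 2-fold was 1 of them. That was Cd74, the invariant chain, with 1.18 FPKM in Lbr-litter and 4.76 FPKM in Lmna-litter wild type (-1.40). None of the 20 genes of lymphoid cells and granulocytes was compared, 19 for a mean under 1 FPKM and S100a8 for its listed 0 in the Lmna litter. The 3 granulocyte genes among them with the most RNA, named after their values were seen, were higher in the Lbr litter, though near the floor. S100a8, a calcium-binding protein of neutrophils, had 2.57 FPKM in Lbr-litter wild type, its partner S100a9 had 1.65 FPKM in Lbr-litter and 0.238 FPKM in Lmna-litter wild type, and the granule protein gene Ngp had 1.29 FPKM in Lbr-litter and 0.0954 FPKM in Lmna-litter wild type. Other granulocyte genes were still nearer 0 and went both ways. Camp had 0.103 FPKM in Lbr-litter and 0.196 FPKM in Lmna-litter wild type. Mpo had 0.0845 FPKM in Lbr-litter and 0.132 FPKM in Lmna-litter wild type, whereas Ltf had 0.144 FPKM and 0 FPKM. In all, the macrophage, MHC class II and chemokine lists held 69 of the 11402 genes compared. They held 40 of the 232 lower genes (17.2%) and 0 of the 77 higher ones. With so small a share of all genes in these lists, the 0 says little.

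Among the 4 myoblast columns, the Lbr-litter wild type stood alone in its low macrophage genes. The knockout columns share no library with the wild types. Lbr-litter wild type was the lowest of the 4 myoblast columns for 45 of the 47 macrophage genes, including all 27 of the surface list. Tyrobp stood at 52.0 FPKM in Lbr-knockout and 50.0 FPKM in Lmna-knockout myoblasts, and Csf1r at 38.9 FPKM in Lbr-knockout and 32.1 FPKM in Lmna-knockout myoblasts. C1qb stood at 99.3 FPKM in Lbr-knockout and 86.5 FPKM in Lmna-knockout myoblasts. These levels are close to those of the Lmna-litter wild type and several times those of the Lbr-litter wild type. The summed FPKM of the 47 genes, of which Lyz2 was the largest part in each column, was 1000.04 in Lbr-litter wild type, 2741 in Lmna-litter wild type, 2396 in Lbr-knockout and 2525 in Lmna-knockout myoblasts. Between the knockout columns the median difference of the macrophage genes was 0.27, with 3 genes at least 2-fold higher and 0 lower in the Lbr knockout. Of all 11336 genes compared between the knockout columns, 218 were at least 2-fold higher (1.92%) and 141 lower (1.24%) in the Lbr knockout.

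**Figure D2:**
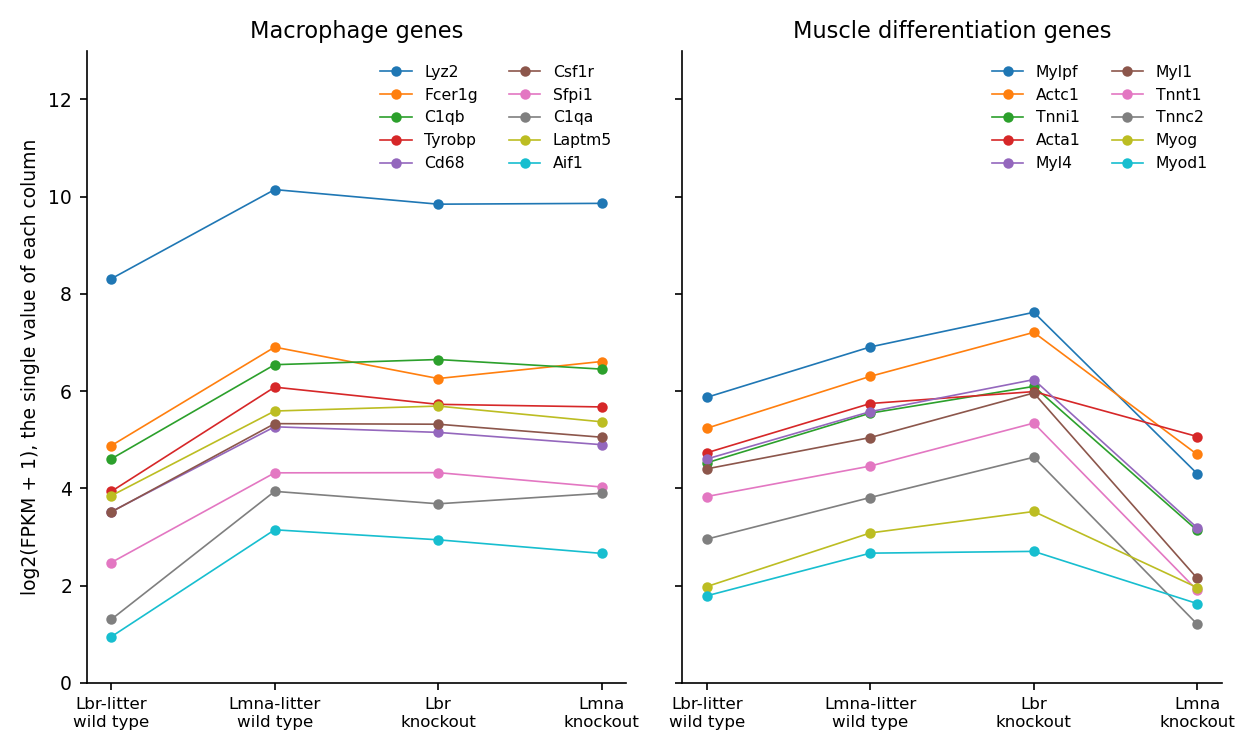
Points give log2(FPKM + 1) of 10 macrophage genes (left) and 10 muscle differentiation genes (right) in the 4 myoblast columns, the Lbr-litter and the Lmna-litter wild type (1 library each) and the Lbr and the Lmna knockout (1 deposited value for 2 samples each). Lines join the points of a gene. All 10 macrophage genes are lowest in the Lbr-litter wild type and near level in the other columns, whereas all 10 muscle genes are highest in the Lbr knockout.

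Muscle differentiation genes differed less, and mostly by less than 2-fold, with nearly all of them on the same side. Of 16 myogenic regulators and fusion genes compared (of 22 matched), 1 was at least 2-fold lower in the Lbr-litter wild type, 13 lay below 0 and the median was -0.64. The gene past 2-fold was Myog, the myogenin that starts terminal differentiation, with 2.94 FPKM in Lbr-litter and 7.47 FPKM in Lmna-litter wild type (-1.10). Myod1 differed by -0.88. Chrng, the gamma subunit of the embryonic acetylcholine receptor, had 0.777 FPKM in Lbr-litter and 2.21 FPKM in Lmna-litter wild type (-0.85). Cav3, the caveolin of muscle membranes, had 1.56 FPKM in Lbr-litter and 3.55 FPKM in Lmna-litter wild type (-0.83). Ckb, brain creatine kinase, had 21.4 FPKM in Lbr-litter and 40.3 FPKM in Lmna-litter wild type (-0.88), and Cdkn1a, the p21 inhibitor that holds differentiating cells out of the cycle, had 205 FPKM in Lbr-litter and 374 FPKM in Lmna-litter wild type (-0.87). Members above 0 were Mef2a, Mef2c and Cdh15, named after their values were seen, with differences of 0.50, 0.24 and 0.21.

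Sarcomere genes showed the same lean. The macrophage genes, with a median of -1.26 over all 47, differed between the same libraries, and their part in the muscle difference was not tested. Of 38 compared (of 55 matched), 5 were at least 2-fold lower, 37 lay below 0, and the median was -0.55, with the middle 50% between -0.79 and -0.36. Mylpf, the regulatory light chain of fast fibres, had 57.5 FPKM in Lbr-litter and 119 FPKM in Lmna-litter wild type (-1.04). Tnni1, slow troponin I, had 22.02 FPKM in Lbr-litter and 45.7 FPKM in Lmna-litter wild type (-1.02). Actc1 and Acta1 encode the cardiac and skeletal actins that developing muscle expresses together. Actc1 had 36.7 FPKM in Lbr-litter and 78.0 FPKM in Lmna-litter wild type (-1.07), and Acta1 had 25.5 FPKM in Lbr-litter and 52.6 FPKM in Lmna-litter wild type (-1.01). Cryab, the small heat shock protein of the Z-disc, had 98.7 FPKM in Lbr-litter and 206 FPKM in Lmna-litter wild type (-1.05). By class, the median was -0.60 for 8 fast-fibre genes, -0.59 for 6 slow-fibre genes, -0.76 for 8 developmental genes and -0.43 for 16 genes of the Z-disc and thick filament. The gene above 0 was Neb, the long thin-filament protein nebulin, named after its value was seen, with 3.78 FPKM in Lbr-litter and 3.27 FPKM in Lmna-litter wild type (0.16). In excitation-contraction coupling, 1 of 10 genes was lower and the median was -0.30. This was Cacng1, the gamma subunit of the muscle calcium channel, with 1.16 FPKM in Lbr-litter and 3.47 FPKM in Lmna-litter wild type (-1.05). The 17 muscle progenitor genes compared did not share the lean, with 0 past 2-fold, 9 above 0 and a median of 0.04. Ncam1, an adhesion molecule of myoblasts and nerve, had 68.4 FPKM in Lbr-litter and 56.5 FPKM in Lmna-litter wild type (0.27). Hes1, a Notch target, had 52.8 FPKM in Lbr-litter and 44.4 FPKM in Lmna-litter wild type (0.24). Sdc4 lay on the other side, with 43.1 FPKM in Lbr-litter and 51.7 FPKM in Lmna-litter wild type (-0.26).

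The promoters of Mylpf (chr7:127211358-127211607, plus strand) and Acta1 (chr8:123894776-123895025, minus strand), from RefSeq on GRCm38.p6 and 5′ to 3′, are shown as examples of the sarcomere group. Capitals mark the E-box CAGCTG, which reads the same on both strands.
Mylpf: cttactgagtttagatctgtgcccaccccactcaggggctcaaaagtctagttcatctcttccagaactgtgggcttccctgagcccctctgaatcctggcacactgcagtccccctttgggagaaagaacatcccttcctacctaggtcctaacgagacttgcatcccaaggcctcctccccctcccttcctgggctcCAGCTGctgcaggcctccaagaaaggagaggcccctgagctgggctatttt
Acta1: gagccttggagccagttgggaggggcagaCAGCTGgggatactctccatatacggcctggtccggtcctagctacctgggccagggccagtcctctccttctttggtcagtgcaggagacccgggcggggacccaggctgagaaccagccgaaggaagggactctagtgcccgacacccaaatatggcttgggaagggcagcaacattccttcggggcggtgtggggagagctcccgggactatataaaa
The motif starts 51 bases before the gene start in Mylpf and 221 bases before it in Acta1.

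Against the knockout columns, the muscle genes behaved unlike the macrophage genes. The Lbr-litter wild type was the lowest of 4 columns for 4 of the 38 sarcomere genes. The Lbr knockout was highest for 31 and the Lmna knockout lowest for 31, so that both wild types usually lay between the knockouts. Mylpf stood at 196 FPKM in Lbr-knockout and 18.7 FPKM in Lmna-knockout myoblasts. Myog stood at 10.5 FPKM in Lbr-knockout and 2.89 FPKM in Lmna-knockout myoblasts, the second close to the Lbr-litter wild type. Some named genes went the other way. Ckb stood at 28.1 FPKM in Lbr-knockout and 54.9 FPKM in Lmna-knockout myoblasts, Cdkn1a at 232 FPKM and 412 FPKM, and Cryab at 150 FPKM and 274 FPKM. Between the knockouts 3 of the 16 myogenic regulators and 5 of 36 sarcomere genes lay below 0. The median difference of 36 sarcomere genes between the knockout columns was 2.22, with 28 at least 2-fold higher in the Lbr knockout, against -0.55 between the wild types. The wild-type difference was thus smaller and of the opposite sign. Tpm1, alpha-tropomyosin, with 1960 FPKM in Lbr-litter and 2905 FPKM in Lmna-litter wild type, is listed at 0 in both knockout columns and was left out of that comparison.

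A second pattern ran across the whole table and went with the length and base composition of the transcript. The difference rose with transcript length and fell with GC content, taken for 11269 genes (98.8%) from the longest protein-coding transcript in GENCODE M21, or the longest of any kind. Its Spearman correlation across genes was 0.44 with length and -0.52 with GC content, and that of length with GC content was -0.27. Genes share their libraries, so these values describe the 2 libraries. The median difference was -0.46 for transcripts of up to 500 bases, -0.31 at 1000 to 1500 bases, -0.03 at 3000 to 4000 bases, 0.14 at 6000 to 8000 bases and 0.29 above 12000 bases. With genes in 10 groups of equal size by GC content, it was 0.38 in the lowest and -0.27 in the highest. Long transcripts with low GC content had a median of 0.33 and short ones with high GC content one of -0.35. The knockout columns showed the same order, with medians of -0.48 up to 500 bases and 0.29 above 12000 bases, and of 0.45 and -0.37 in the lowest and highest group by GC content. Centring within cells of both properties narrowed the robust SD of the wild-type difference to 0.26, against 0.37 without it. The genes past 2-fold were then 57 higher and 160 lower, and 170 of the 309 genes called without centring were among them. The lower genes had a median length of 1700 bases and the higher ones of 3572 bases, beside 3141 bases for all.

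**Figure D3:**
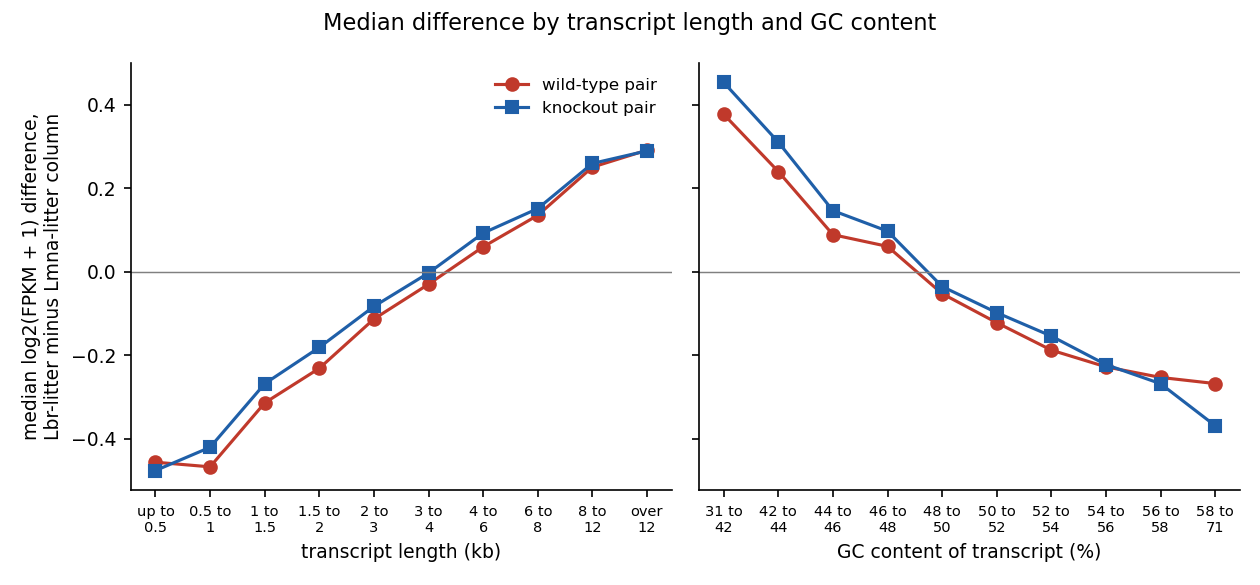
The median log2(FPKM + 1) difference, Lbr-litter minus Lmna-litter column, is plotted for genes grouped by transcript length in kb (left) and in 10 groups of GC content in percent (right). Red circles are the wild-type pair and blue squares the knockout pair. Both lines climb with length, from -0.46 to 0.29 in the wild-type pair, and descend with GC content, from 0.38 to -0.27.

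The macrophage difference kept its size under this centring and the muscle difference shrank. The median of the macrophage genes was -1.16 after centring, with 28 of 47 past 2-fold, against -1.26 and 29 before. For the sarcomere genes it was -0.32 with 0 of 38 past 2-fold, against -0.55 and 5 before. The myogenic regulators had a median of -0.51 and excitation-contraction coupling one of -0.21 after centring, with 0 past 2-fold in each. The short transcripts of ribosomes and mitochondria lost nearly all of their difference. Of 57 cytosolic ribosomal protein genes 54 lay below 0 with a median of -0.39, which was -0.06 after centring. Of 42 genes of oxidative phosphorylation 40 lay below 0 with a median of -0.42, which was -0.07 after centring. In each of these lists 1 gene was past 2-fold. Rpl30, a ribosomal protein gene whose fragments pseudogene copies could share, had 11.6 FPKM in Lbr-litter and 55.5 FPKM in Lmna-litter wild type. Uqcrq, a subunit of respiratory complex III, had 50.3 FPKM in Lbr-litter and 117 FPKM in Lmna-litter wild type (-1.21). Replication-dependent histone genes, mostly short and mostly made without a poly(A) tail, kept part of theirs. The lengths used had a median of 743 bases but reached 7425 bases for Hist1h1d, so the centring of some members is uncertain. Of 19 such genes 4 were at least 2-fold lower and 18 lay below 0, with a median of -0.83, which was -0.44 after centring. Hist1h4d, a histone H4 gene, had 165 FPKM in Lbr-litter and 404 FPKM in Lmna-litter wild type (-1.28), and fragments of near-identical histone copies may have been split among them. The part of library preparation in these differences was not tested.

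Mitosis genes gave no shared direction, whereas cell cycle inhibitors and p53 targets mostly lay below 0. Of 30 mitosis genes 1 was at least 2-fold higher, 13 lay above 0 and the median was -0.05, or 0.02 with median centring, 0.01 with length bins and 0.01 after quantile normalization. With bins of GC content it was -0.09, and with cells of length and GC content -0.05. The gene past 2-fold was Cenpe, the kinesin of the kinetochore, with 48.0 FPKM in Lbr-litter and 22.02 FPKM in Lmna-litter wild type (1.09, and 0.67 after centring within cells of length and GC content). Next came Cenpf, another large kinetochore protein (18.8 FPKM in Lbr-litter and 9.40 FPKM in Lmna-litter wild type, 0.93), and Mki67, the proliferation antigen (113 FPKM in Lbr-litter and 59.7 FPKM in Lmna-litter wild type, 0.92). These are long transcripts, and 2 genes named after their values were seen lay on the other side. Ube2c, a ubiquitin-conjugating enzyme of mitotic exit, had 189 FPKM in Lbr-litter and 281 FPKM in Lmna-litter wild type (-0.57), and Birc5, survivin, had 51.6 FPKM in Lbr-litter and 77.0 FPKM in Lmna-litter wild type (-0.57). The longest protein-coding transcript of Ube2c has 2191 bases and that of Birc5 3334 bases, beside a median of 3141 bases for all genes. The forms expressed in these cells may be shorter, so the length and the centring of these 2 genes are uncertain. Centred within cells of length and GC content, Ube2c lay at -0.28 and Birc5 at -0.64. Of 28 DNA replication genes 0 were past 2-fold, 21 lay below 0 and the median was -0.16. That median was -0.02 with cells of length and GC content. Rrm2, the small subunit of ribonucleotide reductase, had 124 FPKM in Lbr-litter and 176 FPKM in Lmna-litter wild type (-0.50). Of 20 cell cycle inhibitors and p53 targets 3 were lower, 15 lay below 0 and the median was -0.43. After centring within cells of length and GC content 1 was lower, 17 lay below 0 and the median was -0.39. Gdf15, a secreted stress factor induced by p53, had 2.62 FPKM in Lbr-litter and 11.8 FPKM in Lmna-litter wild type (-1.82). Cdkn1c, the p57 inhibitor, had 2.78 FPKM in Lbr-litter and 7.02 FPKM in Lmna-litter wild type (-1.09).

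Stress and growth factor response genes mostly lay below 0, both between the wild types and between the knockout columns. Of 26 AP-1 and immediate early genes 3 were at least 2-fold lower, 22 lay below 0 and the median was -0.43. After centring within cells of length and GC content 0 were lower and 1 was higher, with 21 below 0 and a median of -0.22. Fos, a subunit of AP-1, had 3.04 FPKM in Lbr-litter and 7.11 FPKM in Lmna-litter wild type (-1.01), and Dusp1, a MAP kinase phosphatase, had 75.4 FPKM in Lbr-litter and 152 FPKM in Lmna-litter wild type (-1.01). Ier2, an immediate early gene, had 5.06 FPKM in Lbr-litter and 12.9 FPKM in Lmna-litter wild type (-1.20). Nr4a1, an orphan nuclear receptor, went the other way with 8.81 FPKM in Lbr-litter and 4.04 FPKM in Lmna-litter wild type (0.96), and was the gene past 2-fold after centring (1.22). Between the knockout columns 24 of the 26 lay below 0, with a median of -0.53. In the integrated stress response, which ATF4 drives, 3 of 20 genes were lower, or 1 after centring. The median was -0.21, or -0.11 after centring. Chac1, a glutathione-degrading enzyme and ATF4 target, had 1.70 FPKM in Lbr-litter and 18.5 FPKM in Lmna-litter wild type (-2.85). Between the knockouts it had 4.11 FPKM in the Lbr and 17.3 FPKM in the Lmna knockout. Over the whole list the knockout columns had a median of -0.31, with 16 of 20 genes below 0. The knockout values of both lists are not centred, and the knockout median over all genes was -0.04. Median GC content was 54.7% for AP-1 and immediate early genes and 54.6% for the integrated stress response, beside 49.8% for all genes. The part of base composition in the knockout values was not tested. Sesn2, a sestrin induced by stress, had 8.98 FPKM in Lbr-litter and 21.5 FPKM in Lmna-litter wild type (-1.17). Ddit3, the CHOP transcription factor, had 6.39 FPKM in Lbr-litter and 14.2 FPKM in Lmna-litter wild type (-1.04, and -0.56 after centring). Atf4 itself had 102 FPKM in Lbr-litter and 183 FPKM in Lmna-litter wild type (-0.83). The amino acid enzymes of this response differed little. Asns, asparagine synthetase, had 126 FPKM in Lbr-litter and 144 FPKM in Lmna-litter wild type, a difference of -0.20 in a gene named after its value was seen.

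Markers of the other cells of muscle tissue were mostly within 2-fold. All 13 pericyte and smooth muscle genes lay below 0, none past 2-fold, with a median of -0.46. Actg2, the enteric smooth muscle actin, had 618 FPKM in Lbr-litter and 1077 FPKM in Lmna-litter wild type (-0.80), and Cnn1, calponin, had 165 FPKM in Lbr-litter and 287 FPKM in Lmna-litter wild type (-0.80). Between the knockout columns their median was -0.79, with 4 of 13 lower in the Lbr knockout. Of 25 fibroblast genes 1 was past 2-fold and the median was -0.12, which changed sign under 3 scalings, to 0.09 with bins of GC content, 0.07 with cells of length and GC content and 0.04 after quantile normalization. That was Ly6a, the progenitor antigen Sca-1, with 27.5 FPKM in Lbr-litter and 92.1 FPKM in Lmna-litter wild type (-1.71). Postn, the matrix protein periostin, had 940 FPKM in Lbr-litter and 553 FPKM in Lmna-litter wild type (0.76). The 21 matricellular and matrix remodelling genes had 0 past 2-fold and a median of -0.29. Nov, a CCN matricellular protein, had 6.56 FPKM in Lbr-litter and 3.11 FPKM in Lmna-litter wild type (0.88), whereas Plaur, the urokinase receptor, had 24.4 FPKM in Lbr-litter and 42.9 FPKM in Lmna-litter wild type (-0.79). Endothelial genes lay on the higher side, with 5 of 6 above 0, 0 past 2-fold and a median of 0.49, though the 1 gene of them that averaged 5 FPKM or more lay at -0.56. Pecam1, the endothelial adhesion molecule CD31, had 1.52 FPKM in Lbr-litter and 0.680 FPKM in Lmna-litter wild type (0.58), and Cldn5, the endothelial tight junction claudin, was at or near 0 in both. The medians were -0.17 for 11 Schwann cell genes, 0.01 for 5 adipocyte genes and -0.26 for 6 cartilage and bone genes, with 0 past 2-fold in each. None of these 3 medians kept its sign under all alternatives. Of 3 epithelial genes compared Krt19, an epithelial keratin, was lower, with 5.45 FPKM in Lbr-litter and 17.3 FPKM in Lmna-litter wild type (-1.51).

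**Figure D4:**
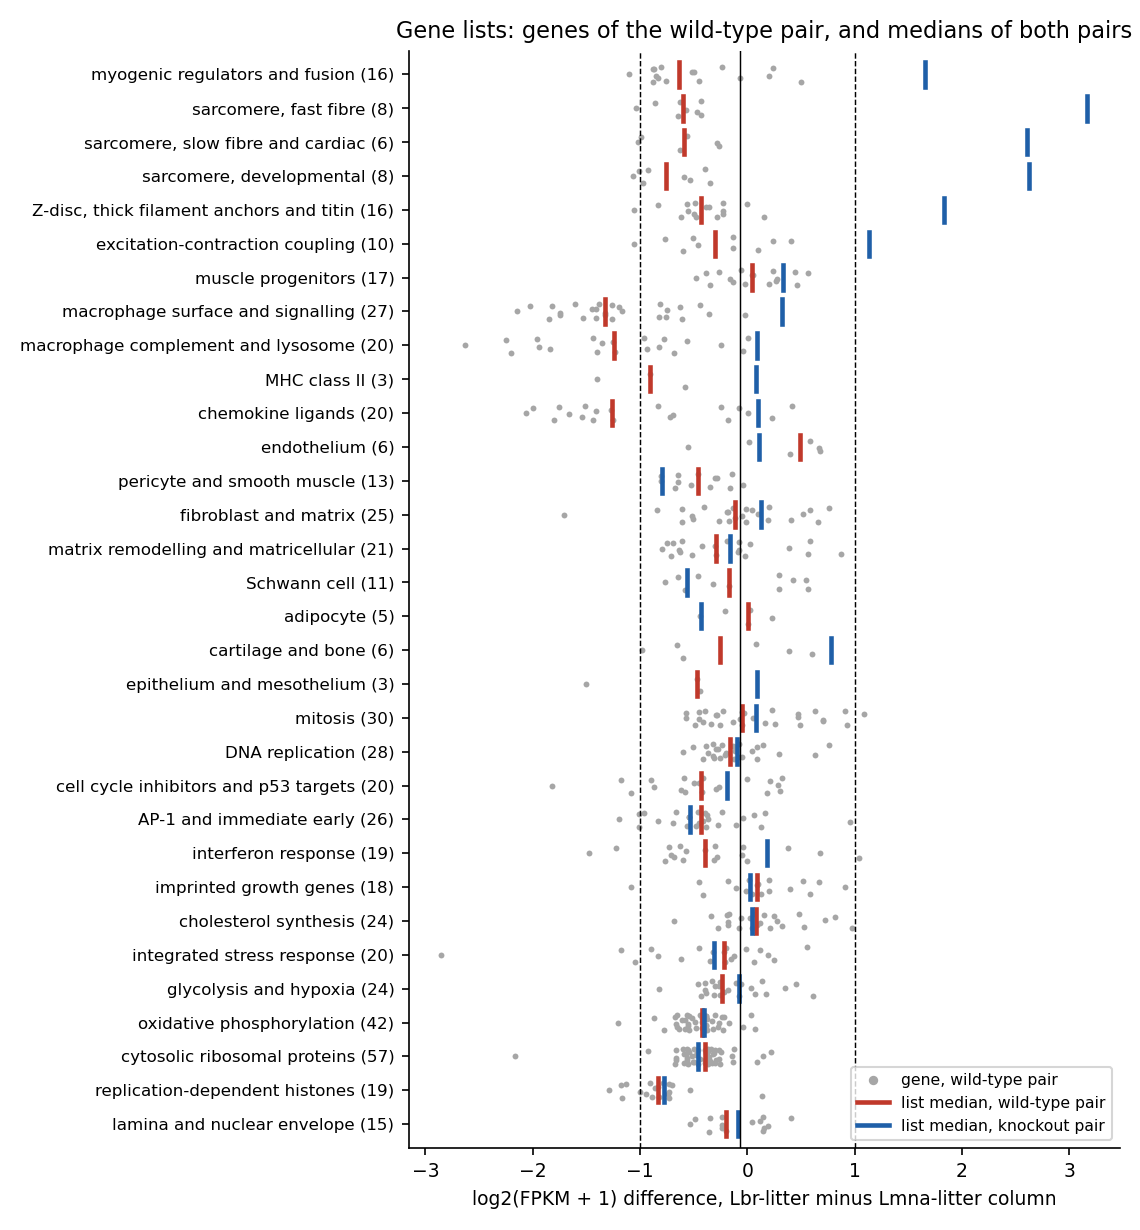
Grey points are the log2(FPKM + 1) differences of single genes between the wild-type libraries, Lbr-litter minus Lmna-litter, by gene list, with the number of genes compared in brackets. Red bars are the list medians of the wild-type pair and blue bars those of the knockout pair, dashed lines mark 2-fold and the solid line the median of all genes (-0.07). The macrophage surface list has its wild-type median at -1.32 and its knockout median at 0.32. The fast-fibre sarcomere list has -0.60 and 3.17, and the histone list -0.83 and -0.78.

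The remaining lists held few called genes. Of 19 interferon response genes 2 were lower and 1 higher, with a median of -0.39. After centring within cells of length and GC content 0 were lower and 0 higher. Bst2, tetherin, had 7.33 FPKM in Lbr-litter and 22.1 FPKM in Lmna-litter wild type (-1.47, and -0.99 after centring), and Ifi204, an interferon-inducible DNA sensor, had 7.70 FPKM in Lbr-litter and 3.22 FPKM in Lmna-litter wild type (1.04, and 0.84 after centring). The cholesterol synthesis list had 0 of 24 past 2-fold and a median of 0.08, with Stard4, a sterol carrier, at 11.7 FPKM in Lbr-litter and 5.48 FPKM in Lmna-litter wild type (0.97). The glycolysis and hypoxia list had 0 of 24 past 2-fold and a median of -0.24, which was 0.06 after centring. Among 18 imprinted growth genes 1, Cdkn1c, was lower and the median was 0.09. Igf2, the fetal growth factor, had 72.8 FPKM in Lbr-litter and 63.1 FPKM in Lmna-litter wild type (0.20). None of 15 genes of the lamina and nuclear envelope passed 2-fold, and the median was -0.20, or 0.02 with bins of GC content. Lbr had 16.1 FPKM in Lbr-litter and 14.7 FPKM in Lmna-litter wild type (0.12), beside 7.71 FPKM in the Lbr knockout. Lmna had 114 FPKM in Lbr-litter and 147 FPKM in Lmna-litter wild type (-0.36), beside 18.5 FPKM in the Lmna knockout. Both targeted genes thus lay within the 0.83 that held 95% of genes.

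Sex-linked genes separated the libraries. Xist, the RNA that coats the inactive X chromosome of females, had 0.00569 FPKM in Lbr-litter and 6.67 FPKM in Lmna-litter wild type (-2.93). Ddx3y, a Y-linked RNA helicase, had 21.4 FPKM in Lbr-litter and 8.003 FPKM in Lmna-litter wild type (1.31, and 0.89 after centring). Eif2s3y, a Y-linked translation factor, had 22.8 FPKM in Lbr-litter and 10.1 FPKM in Lmna-litter wild type (1.10). The Lbr-litter library therefore held Y-linked RNA with almost no Xist, and the Lmna-litter library held both. Uty and Kdm5d, Y-linked histone demethylases, differed by 0.90 and 0.73. Both knockout columns held Xist and Y-linked RNA too, with Xist at 56.6 FPKM in the Lbr and 22.1 FPKM in the Lmna knockout. The labels do not say how many animals gave the cells of a library, and the part of sex in the other differences was not tested.

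The largest single differences came from several groups. On the higher side were Ptn, the secreted growth factor pleiotrophin, with 46.2 FPKM in Lbr-litter and 12.4 FPKM in Lmna-litter wild type (1.82), and Sfrp2, a secreted Wnt modulator, with 5.63 FPKM in Lbr-litter and 1.36 FPKM in Lmna-litter wild type (1.49). Grem1, the secreted BMP antagonist gremlin, had 40.8 FPKM in Lbr-litter and 15.7 FPKM in Lmna-litter wild type (1.33). Fgf7, a fibroblast growth factor for epithelia, had 59.1 FPKM in Lbr-litter and 23.2 FPKM in Lmna-litter wild type (1.31). These are products of mesenchymal cells, and all 4 were also at least 2-fold higher in the Lbr than in the Lmna knockout. Ptn stood there at 41.3 FPKM in the Lbr and 20.1 FPKM in the Lmna knockout, and Grem1 at 43.9 FPKM in the Lbr and 16.3 FPKM in the Lmna knockout. Il6, the cytokine interleukin 6, had 18.05 FPKM in Lbr-litter and 6.68 FPKM in Lmna-litter wild type (1.31), and Il1rl1, the receptor of interleukin 33, had 17.2 FPKM in Lbr-litter and 6.02 FPKM in Lmna-litter wild type (1.38). Hoxc8, a patterning transcription factor, had 15.2 FPKM in Lbr-litter and 4.55 FPKM in Lmna-litter wild type (1.55). The others of the 12 were Snhg6, Efcab7, Pi15, Ddx3y and the pseudogene Pisd-ps1. Beside the 4 mesenchymal genes, only Il1rl1 of the 12 was also past 2-fold between the knockouts (1.97). Hoxc8 lay at 0.09 there, Il6 at -0.13 and Pisd-ps1 at -0.46. On the lower side, beside Xist, Chac1, Rpl30 and the macrophage genes named above, stood C5ar1, the receptor of complement C5a, with 10.9 FPKM in Lbr-litter and 58.5 FPKM in Lmna-litter wild type (-2.32). Cd52, a leukocyte surface peptide, had 4.64 FPKM in Lbr-litter and 27.1 FPKM in Lmna-litter wild type (-2.32), and Clec4d, a myeloid lectin, had 2.32 FPKM in Lbr-litter and 15.2 FPKM in Lmna-litter wild type (-2.29). Rangrf and the pseudogene Pisd-ps3 had estimates near 0 in the Lbr-litter wild type, and their differences of -3.24 and -2.67 rest on those.

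How the called genes stood between the knockout columns differed by direction. Across 11336 genes compared between the knockouts, the median absolute difference was 0.28, close to the 0.26 of the wild types. The 2 differences, which share no library, correlated across genes with a Pearson coefficient of 0.53 and a Spearman coefficient of 0.65. After centring within cells of length and GC content these were 0.32 and 0.48 over 11206 genes. Of the 77 genes higher in the Lbr-litter wild type, 76 were compared between the knockouts and 67 of these were above 0, with a median of 1.00. Of these, 37 were also at least 2-fold higher in the Lbr knockout, which is 48.1% of the wild-type list and 17.0% of the knockout list. Over all 11336 genes the share at least 2-fold higher was 1.92%. The 232 lower genes split evenly by sign but not by size. Between the knockouts 120 were above and 112 below 0, with a median of 0.03 and the middle 50% between -0.78 and 0.40. Of these, 39 were also at least 2-fold lower in the Lbr knockout, which is 16.8% of the wild-type list and 27.7% of the knockout list. Over all 11336 genes the share at least 2-fold lower was 1.24%. Another 11 of the 232 were at least 2-fold higher in the Lbr knockout. Litter, genotype and the handling of a litter cannot be told apart in the knockout columns.

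Genes listed at 0 in only 1 of the wild types were left out, 11 in all, 6 at 0 in the Lbr litter and 5 in the Lmna litter. Of these, 10 were small RNAs and the other was S100a8.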

How the data were processed

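Total RNA from TRIZOL extraction was cleaned on RNeasy columns, per the labels' protocols. The authors deposited FPKM, read fragments scaled to transcript length and to library size, with a single column per group. The genome build is mm9, per the submitters' processing notes. Not given in the sources used here are the aligner, the quantifier, the gene annotation and how 2 samples were joined into 1 column. All 7 columns were matched to groups by name (0 unmatched).

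From these values the log2(FPKM + 1) difference was calculated (pseudocount 1) for genes averaging 1 FPKM or more and above 0 in both columns, with Python 3.11.15, pandas 2.3.3 and numpy 2.4.6. A 2-fold difference took the place of a test, since 1 library a group allows none. Total counts are unknown, so no interval is given. The depth estimate took the product of FPKM and length that was most frequent among low values of 4179 single-transcript genes. The calculation was tested on simulated data. The members and the 34 gene lists were chosen with earlier results of these data known, and 3 list genes were not matched. Named by rule were the 12 largest differences in each direction (without small RNAs and predicted genes), up to 6 members of each list by size of difference, up to 3 by level in lists with nearly none, the sex-linked genes, Lbr and Lmna. The markers that check the label were named for that purpose. Alternatives were pseudocounts of 0.1 and 5, no filter, a filter of 5 FPKM, genes at 0 kept, median centring and quantile normalization. Centring within 20 bins of length or GC content, or in cells of 10 by 10 bins, was chosen after seeing the data, with transcripts from GENCODE M21 (GRCm38).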

Additional observations from a re-analysis of the deposited data

How the results depend on the processing

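The counts of genes past 2-fold depended on the pseudocount and the filter. With a pseudocount of 0.1 there were 198 higher and 401 lower genes, with 5 there were 17 and 76, and with a filter of 5 FPKM there were 51 and 133, against 77 and 232. Of the alternatives chosen after seeing the data, centring within bins of GC content left 32 higher genes and centring within bins of length left 144 lower ones. The median difference of a list moved by more than 0.37, the robust SD over all genes, for 8 lists. Chemokines moved to -0.86 with length bins and -0.55 with a pseudocount of 5, and histones to -0.42 with length bins and -0.44 with cells of length and GC content. With a pseudocount of 5 the macrophage surface genes moved to -0.74, all immune genes to -0.74, MHC class II to -0.42 and the sex-linked genes to 0.46. The sex-linked median, 0.90 as reported, was 0.50 with bins of GC content and 0.42 with cells. With no filter MHC class II moved to -0.43 and epithelium to -0.02, and with a filter of 5 FPKM epithelium moved to -0.99 and endothelium to -0.56. In 8 lists, none reported as past 0.50 in size, the median changed sign under at least 1 alternative: mitosis, fibroblasts, Schwann cells, adipocytes, cartilage and bone, endothelium, glycolysis, and the lamina and nuclear envelope. None of the 65 named genes past 2-fold changed sign under any alternative run. Of these 65, 56 stayed past 2-fold after median centring, 57 after quantile normalization and 38 with a pseudocount of 5. Of the 64 with a length and GC content, 45 stayed past 2-fold with length bins, 43 with bins of GC content and 40 with cells. Leaving out a replicate could not be run, because each group is 1 library. No paired analysis was possible because each group has a single library and no test was made. Low values are limited by an unknown depth, and the spread between 2 libraries does not separate culture, animal and preparation.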

Other observations

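Hox genes, the transcription factors that set position along the body and limb, were looked at after their values were seen, since several were among the called genes. The cut between groups 8 and 9 was also chosen after the values were seen. The counts on its sides therefore describe these values and are no test of the cut. Of 18 genes compared from paralogue groups 1 to 8, 17 lay above 0, 3 were at least 2-fold higher in the Lbr-litter wild type and the median was 0.60. Beside Hoxc8, these were Hoxb7, with 6.01 FPKM in Lbr-litter and 1.93 FPKM in Lmna-litter wild type (1.26), and Hoxa7, with 4.31 FPKM in Lbr-litter and 1.57 FPKM in Lmna-litter wild type (1.05). Of 10 genes from groups 9 to 13, 8 lay below 0, 3 were lower and the median was -0.65. Hoxc13 had 3.42 FPKM in Lbr-litter and 14.8 FPKM in Lmna-litter wild type (-1.83), Hoxc12 had 0.494 FPKM in Lbr-litter and 5.06 FPKM in Lmna-litter wild type (-2.02), and Hoxc10 had 11.6 FPKM in Lbr-litter and 24.7 FPKM in Lmna-litter wild type (-1.03). After centring within cells of length and GC content the medians were 0.82 for groups 1 to 8 and -0.41 for groups 9 to 13. Between the knockout columns the medians were 0.03 and -0.27. Hoxc13 was apart there too, with 3.27 FPKM in the Lbr and 14.99 FPKM in the Lmna knockout. The labels do not say from which muscle the cells were taken.

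A few genes outside the lists were also chosen after their values were seen. Malat1, a long nuclear RNA, had 896 FPKM in Lbr-litter and 426 FPKM in Lmna-litter wild type (1.07, and 0.65 after that centring), beside 948 FPKM in the Lbr and 370 FPKM in the Lmna knockout. Tpr, a protein of the nuclear pore basket, had 111 FPKM in Lbr-litter and 53.1 FPKM in Lmna-litter wild type (1.05, and 0.74 after centring), beside 112 FPKM in the Lbr and 47.4 FPKM in the Lmna knockout. Inhba, the activin A subunit, was among the most abundant genes past 2-fold, with 1026 FPKM in Lbr-litter and 486 FPKM in Lmna-litter wild type (1.08, and 0.60 after centring). Igfbp2, an IGF-binding protein, had 12.5 FPKM in Lbr-litter and 55.9 FPKM in Lmna-litter wild type (-2.07). Lrrc17 had 21.9 FPKM in Lbr-litter and 8.87 FPKM in Lmna-litter wild type (1.21) and is listed at 0 in both knockout columns.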
